A study of Mus musculus with 22 samples.

Results

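The genes described here are 6 members of the growth hormone and insulin-like growth factor axis of the liver: Igf1, Igfals, Igfbp1, Igfbp2, Igfbp4 and Ghr. They were picked by symbol from the 24475 genes of a liver RNA-seq table, by no threshold on their values but with earlier results of these data known, and all 6 were found and passed the filter on low values. The table holds 22 mouse liver libraries from a study of glucagon infusion, in RPKM, which corrects read numbers for transcript length and sequencing depth. The groups were Gcg-/- mice, which lack the glucagon gene, without infusion (n = 3), with glucagon at 30 µg/d (n = 4) and with glucagon at 150 µg/d (n = 4). The matching WT groups were without infusion (n = 3), at 30 µg/d (n = 4) and at 150 µg/d (n = 4). The labels give no age, sex, strain, infusion route or duration, and no group received a sham infusion according to them. They do not state that each library came from its own mouse, so the p-values measure only the spread between these libraries.

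Growth hormone binds its receptor (Ghr) on hepatocytes and, through JAK2 and STAT5b, induces Igf1, whose product is the main circulating growth factor of liver origin. Most circulating IGF1 travels in a complex of a binding protein and the acid-labile subunit (Igfals), while IGFBP1, IGFBP2 and IGFBP4 form smaller complexes that limit its access to receptors. In liver, Igfbp1 is repressed by insulin and induced by cAMP and FOXO1, Igfbp2 is known to rise in fasting, and glucagon acts on hepatocytes through a receptor (Gcgr) that raises cAMP.

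Gcg, which liver does not use, was listed at 0 RPKM in all 22 libraries, so it gives no check of the genotype labels. Gcgr lay between 68.5 and 93.9 RPKM. Estimated depth was 11.18 to 17.82 M reads per library, at which 1 read in a transcript of 1 kb is worth 0.0561 to 0.0895 RPKM, far below the levels of all 6 genes. Libraries 4 (uninfused Gcg-/-) and 13 (Gcg-/- at 30 µg/d) stood apart in genes that differ between male and female livers. Cyp2b9, a female-biased cytochrome P450, was at 111 and 42.9 RPKM in them and at 1.61 RPKM or less in the other 20 libraries. The mean log2(RPKM + 1) of 17 male-biased genes was 4.67 in library 4 and 6.03 in library 13, against 6.73 to 8.26 elsewhere. All 22 libraries had Y-linked Ddx3y (8.04 to 16.3 RPKM). Values without them are given beside the results that they move.

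The promoters of the 3 binding proteins are shown first because these genes behaved in 3 different ways: Igfbp1 varied most between libraries, Igfbp2 fell and Igfbp4 rose under infusion in Gcg-/- mice. The windows are the 250 bases before a RefSeq start site in GRCm38.p6, all on the plus strand, and capitals mark the insulin response element core CAAAACA. Igfbp1 lies at chr11:7197787-7202546 and its window at chr11:7197537-7197786. Igfbp2 lies at chr1:72824480-72852474, with the window of its first start site at chr1:72824230-72824479. Igfbp4 lies at chr11:99040005-99052655, with its window at chr11:99040994-99041243.
Igfbp1: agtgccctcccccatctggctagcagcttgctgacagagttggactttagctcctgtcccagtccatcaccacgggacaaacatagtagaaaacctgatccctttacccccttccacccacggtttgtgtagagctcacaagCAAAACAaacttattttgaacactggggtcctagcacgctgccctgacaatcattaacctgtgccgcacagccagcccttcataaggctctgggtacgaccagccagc
Igfbp2: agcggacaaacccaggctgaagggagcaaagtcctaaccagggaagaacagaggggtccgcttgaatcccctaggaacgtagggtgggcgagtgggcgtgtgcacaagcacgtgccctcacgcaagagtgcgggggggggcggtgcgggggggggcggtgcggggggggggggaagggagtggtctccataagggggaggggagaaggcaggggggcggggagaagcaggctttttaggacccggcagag
Igfbp4: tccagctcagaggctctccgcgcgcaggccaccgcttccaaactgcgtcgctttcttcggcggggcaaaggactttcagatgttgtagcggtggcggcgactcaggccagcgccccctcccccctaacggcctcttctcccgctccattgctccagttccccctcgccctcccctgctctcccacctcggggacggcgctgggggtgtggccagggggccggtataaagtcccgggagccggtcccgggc
The windows differed in base composition, with 53.2% G and C and 5 CpG sites for Igfbp1, 67.2% and 14 for Igfbp2, and 69.2% and 22 for Igfbp4. CAAAACA was found in the Igfbp1 window, 108 to 102 bases before the start, and in 5.56% of 32851 promoters searched on both strands. It was in 1 of the 10 windows of the 6 genes. The cAMP response half-site TGACG was in 1 of the 10 windows, the second of Igfals, and in 17.8% of all promoters. The STAT5 site, TTC and GAA with 3 bases between them, was in 2 of the 10, both of Igfals, and in 7.02% of all. Such matches are descriptions of the letters only.

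The remaining genes are Igf1 (chr10:87858265-87937047), Igfals (chr17:24877844-24882011) and Ghr (chr15:3317755-3583352), in RefSeq coordinates on GRCm38. Per length, Igfbp4 was the most abundant of the 6 transcripts, with a median of 622 RPKM over 22 libraries, followed by Ghr at 241, Igfbp2 at 183, Igf1 at 120.5, Igfbp1 at 63.3 and Igfals at 45.4 RPKM. They differed widely in their spread. Igfbp4 ranged 1.54-fold between its lowest and highest library, Igfals 1.60-fold, Igf1 1.76-fold and Ghr 2.05-fold, against 9.21-fold for Igfbp2 and 69.5-fold for Igfbp1. Within groups, the SD of Igfbp4 on the log2 scale was 0.09, smaller than that of all but 3.76% of the 11590 genes tested. That of Igfbp1 was 1.70, larger than that of 99.8% of them.

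**Figure D1:**
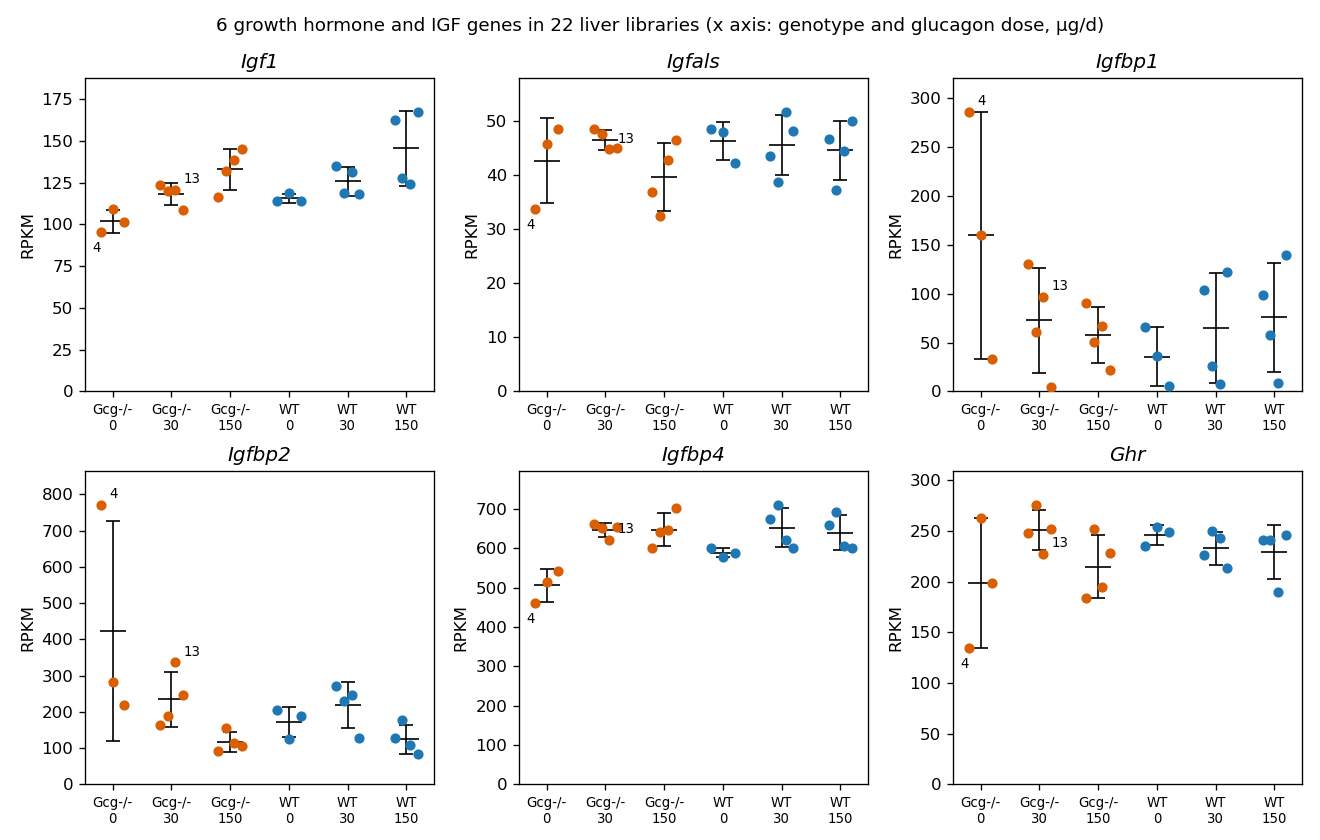
RPKM of each gene (y axes, from 0) in 22 liver libraries by genotype and glucagon dose in µg/d (x axes). Points are libraries (orange Gcg-/-, blue WT), bars the group mean and SD, and libraries 4 and 13 are numbered; library 4 is highest for Igfbp1 (286 RPKM) and Igfbp2 (771 RPKM) and lowest for Igf1 (95.2 RPKM), Igfbp4 (461 RPKM) and Ghr (135 RPKM).

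Infusion was set against no infusion within each genotype, and Gcg-/- against WT at each dose, to describe how these transcripts differ between the groups. Without a labelled sham infusion, glucagon and the infusion procedure cannot be told apart. A gene was called when limma's p for log2(RPKM + 1), adjusted over 11590 genes, was under 0.05. At 150 µg/d against none in Gcg-/- livers, 2 of the 6 genes were called, Igfbp2 lower and Igfbp4 higher, where 2.72% of all genes tested were called. None of the 6 was called at 30 µg/d in Gcg-/- (0.0863% of all genes), at 150 µg/d in WT (0.293%), at 30 µg/d in WT (0% of all genes, with 657 at an unadjusted p under 0.05), or in uninfused Gcg-/- against WT livers (1.54%). At an unadjusted p under 0.05 the same 4 comparisons held 2, 1, 0 and 2 of the 6 genes, against 10.1%, 12.1%, 5.67% and 17.5% of all genes, and the first one named held 3, against 18.4%. Groups without any overlap are described below by their values, against a background of genes with no overlap of 13.5% at 150 µg/d in Gcg-/-, 8.75% at 30 µg/d in Gcg-/-, 14.5% and 7.49% at those doses in WT, 6.29% between the doses in Gcg-/-, and 24.8% between uninfused genotypes. The genotype comparison and both dose comparisons in Gcg-/- share the 3 uninfused Gcg-/- libraries, library 4 among them. In whole liver, fewer cells of a type and less RNA per cell cannot be told apart.

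**Figure D2:**
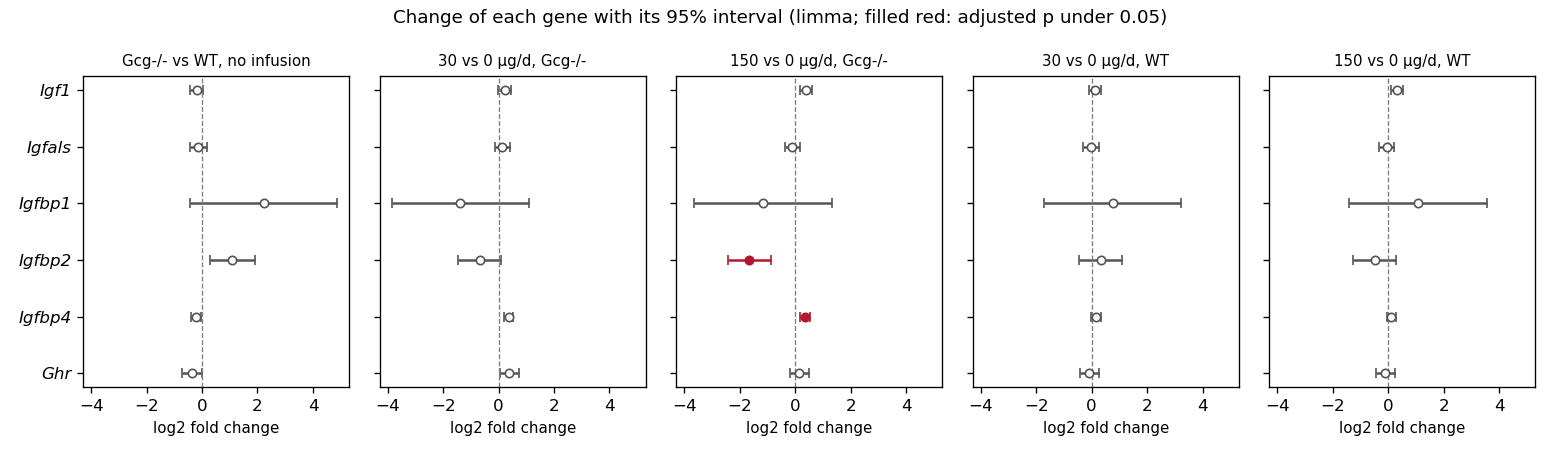
Log2 fold change of each gene (x axes) with its 95% interval from limma in 5 comparisons (panels); filled red points have an adjusted p under 0.05. Igfbp2 (−1.65) and Igfbp4 (0.36) at 150 µg/d in Gcg-/- are the only filled points, and the interval of Igfbp1 spans 0 in every panel.

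Igf1, the growth factor, was lowest in uninfused Gcg-/- livers and highest at 150 µg/d in both genotypes. The uninfused Gcg-/- libraries had 95.2, 109 and 101.5 RPKM. At 30 µg/d the Gcg-/- libraries had 124, 120.2, 121 and 108 RPKM, and at 150 µg/d they had 117, 132, 138 and 145 RPKM. At 150 µg/d every Gcg-/- library was above every uninfused one, while at 30 µg/d the lowest library overlapped them. The WT libraries had 114, 119 and 114 RPKM uninfused, 135, 119, 131 and 118 RPKM at 30 µg/d, and 162, 128, 124 and 167 RPKM at 150 µg/d. Here too the highest dose lay wholly above the uninfused libraries, with 2 libraries at 162 and 167 RPKM and 2 at 124 and 128 RPKM.

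Igf1 at 150 µg/d averaged 133 ± 12.3 RPKM (SD, n = 4) in Gcg-/- livers, against 102 ± 6.88 RPKM (n = 3) without infusion, a log2 change of 0.38 ± 0.10 (SE). This did not pass limma's threshold (adjusted p = 0.0594), although it did under median-of-ratios scaling (adjusted p = 0.0208), quantile normalization (0.0473), array weights (0.0235) and without library 17, 18 or 19 (0.0420, 0.0457 and 0.0234). Without library 4, the lowest of the 22 for Igf1, the change was 0.33 (adjusted p = 0.219), and over all alternatives tried the adjusted p ran between 0.0208 and 0.219. In WT livers the means were 145.5 ± 22.5 RPKM at 150 µg/d and 116 ± 2.75 RPKM without infusion, a change of 0.32 ± 0.10 (limma adjusted p = 0.231, and 0.0476 with array weights). Array weights called 438 of 11590 genes in that comparison, against 34 in the main fit. The responses of the genotypes to 150 µg/d differed by 0.06 on the log2 scale, Gcg-/- minus WT (limma adjusted p = 0.919).

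Igfbp2, which binds IGF1 and IGF2 in smaller complexes, fell at 150 µg/d in Gcg-/- livers. The uninfused Gcg-/- libraries had 771, 282 and 218 RPKM, those at 30 µg/d had 165, 190, 337 and 247 RPKM, and those at 150 µg/d had 91.3, 155, 115 and 106 RPKM. No library at 150 µg/d reached any Gcg-/- library of the other doses. The WT libraries had 204, 125 and 189 RPKM uninfused, 272, 231, 246 and 129 RPKM at 30 µg/d, and 129, 178, 108 and 83.7 RPKM at 150 µg/d, and the ranges of all 3 WT groups overlapped. Every uninfused Gcg-/- library was above every uninfused WT library.

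Igfbp2 at 150 µg/d averaged 117 ± 27.5 RPKM (n = 4) in Gcg-/- livers, against 424 ± 303 RPKM (n = 3) without infusion, a log2 change of −1.65 ± 0.37 (limma adjusted p = 0.0237). Library 4 carried much of that baseline: without it the uninfused mean was 250 ± 45.0 RPKM (n = 2), the change −1.10 and the adjusted p 0.132, and 0.0957 without libraries 4 and 13. The call also ended without library 21 (0.0604) or 22 (0.0689) and with the compared groups fitted alone (0.171). Between the 150 and 30 µg/d groups, which do not involve library 4, the log2 change was −0.97 in Gcg-/- (adjusted p = 0.211) and −0.81 in WT (adjusted p = 0.568) by limma. Library 13 belongs to the Gcg-/- group at 30 µg/d, and without it the Gcg-/- change was −0.78. Over single libraries left out, limma's adjusted p for that change ran between 0.0985 and 0.414. Uninfused Gcg-/- livers exceeded uninfused WT livers (173 ± 42.1 RPKM) by 1.09 on the log2 scale, which did not pass (limma adjusted p = 0.150). Without library 4 this difference was 0.55 (adjusted p = 0.550). The 150 µg/d response, Gcg-/- minus WT, was −1.16 (limma adjusted p = 0.458), and without library 4 it was −0.62.

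Igfbp4, an inhibitory binding protein that is cleaved by the protease PAPP-A, rose at 150 µg/d in Gcg-/- livers. The uninfused Gcg-/- libraries had 461, 513 and 542 RPKM, the 3 lowest values of the 22. At 30 µg/d the Gcg-/- libraries had 661, 651, 622 and 654 RPKM, and at 150 µg/d 600.3, 643, 646 and 703 RPKM, so both doses lay above the uninfused group. The WT libraries had 601, 578 and 588 RPKM uninfused, 675, 710.4, 621 and 601 RPKM at 30 µg/d, and 660, 692, 607 and 601 RPKM at 150 µg/d. At 30 µg/d the lowest WT library exceeded the highest uninfused one only narrowly, at 601.33 against 601.25 RPKM.

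Igfbp4 at 150 µg/d averaged 648 ± 42.1 RPKM (n = 4) in Gcg-/- livers, against 506 ± 41.2 RPKM (n = 3) without infusion, a log2 change of 0.36 ± 0.09 (limma adjusted p = 0.0314). At 30 µg/d the mean was 647 ± 17.1 RPKM and the change 0.36 as well, with a limma adjusted p of 0.123, in a comparison where few genes passed, and without library 4 it was 0.29 (adjusted p = 0.573). Without library 4 the change at 150 µg/d was 0.29 (adjusted p = 0.158; 0.145 without libraries 4 and 13). The call also ended without library 5, 20, 21 or 22 (0.0730, 0.0602, 0.0791 and 0.109), with quantile normalization (0.25, adjusted p = 0.122) and with the compared groups fitted alone (0.242). Uninfused Gcg-/- livers differed from uninfused WT livers, at 589 ± 11.8 RPKM (n = 3), by −0.22 on the log2 scale (limma adjusted p = 0.212), and by −0.16 without library 4 (adjusted p = 0.545).

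Igfbp1, the insulin-repressed binding protein, varied so widely within groups that no comparison was resolved. The uninfused Gcg-/- libraries had 286, 160 and 33.1 RPKM, those at 30 µg/d 130, 60.6, 96.7 and 4.11 RPKM, and those at 150 µg/d 91.0, 50.4, 67.0 and 22 RPKM. The WT libraries had 65.9, 35.9 and 5.27 RPKM uninfused, 104, 26.4, 7.92 and 122 RPKM at 30 µg/d, and 98.3, 57.6, 8.22 and 139 RPKM at 150 µg/d. Values under 10 RPKM occurred in 4 groups and values over 100 in 4, and all groups overlapped one another. Gcg-/- minus WT without infusion was 2.22 on the log2 scale with a 95% interval of −0.42 to 4.87 (limma adjusted p = 0.382), and 1.57 without library 4. Grouping accounted for 14.6% of its variance on the log2 scale, against 22.9% for Igfals, 30.5% for Ghr, 60.5% for Igfbp2, 65.1% for Igf1 and 72.9% for Igfbp4. Sorting 22 libraries into 6 groups takes up part of the variance by chance alone.

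Ghr, the growth hormone receptor, and Igfals, the acid-labile subunit, passed in no comparison. Uninfused Gcg-/- livers had 135, 263 and 198 RPKM of Ghr and averaged 199 ± 64.1 RPKM, against 235 to 254 RPKM and 246 ± 9.86 RPKM (n = 3 each) in uninfused WT livers. The other group means of Ghr lay between 214 and 251 RPKM, and all groups overlapped their neighbours in the order of means. Its change at 150 µg/d in Gcg-/- was 0.15 and turned to −0.10 without library 4. Group means of Igfals ran between 39.7 ± 6.28 RPKM in Gcg-/- at 150 µg/d and 46.4 ± 1.85 RPKM in Gcg-/- at 30 µg/d. Uninfused Gcg-/- livers averaged 42.6 ± 7.86 RPKM of Igfals and uninfused WT livers 46.3 ± 3.50 RPKM (n = 3 each).

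Under infusion the genotypes were close in all 6 genes. At 30 µg/d the log2 differences, Gcg-/- minus WT, ran between −0.09 and 0.11, and at 150 µg/d between −0.17 and 0.02, with none of the 6 called (0.328% and 0.0259% of all genes called). At 150 µg/d the 95% interval was −0.15 to 0.18 for Igfbp4 and −0.32 to 0.08 for Igf1, but −0.78 to 0.65 for Igfbp2 and −2.30 to 2.29 for Igfbp1, which leaves room for large differences in those 2 genes. None of the 6 was called in the difference of responses to 30 or 150 µg/d between genotypes, where limma called 0.00863% and 0% of 11590 genes, with 9.02% and 10.2% at an unadjusted p under 0.05. At 150 against 30 µg/d none of the 6 was called in Gcg-/- (0.544% of all genes) or in WT (0.00863%).

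**Figure D3:**
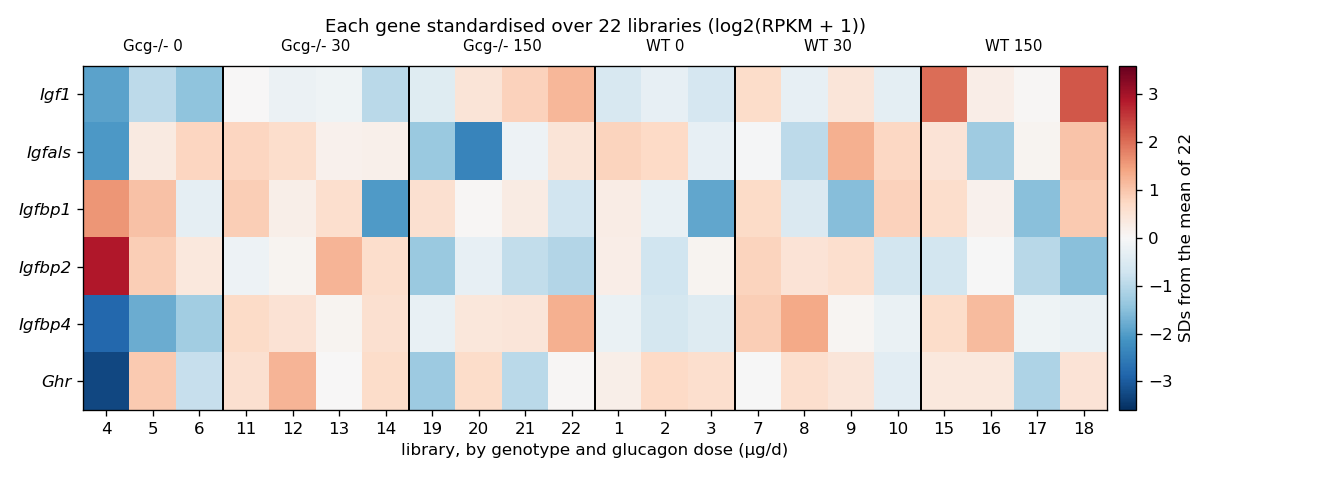
Each gene (rows) in each library (columns, by genotype and glucagon dose in µg/d), as SDs from the gene's mean over 22 libraries on the log2(RPKM + 1) scale; red is above the mean and blue below. Library 4 stands at 2.88 SDs for Igfbp2, −2.83 for Igfbp4 and −3.27 for Ghr, and library 13 at 1.24 SDs for Igfbp2.

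Library 4 was the highest of 22 for Igfbp1 and Igfbp2, the lowest for Igf1, Igfbp4 and Ghr, and second lowest for Igfals. Library 13 had the second highest Igfbp2, at 337 RPKM. Without them, the means in uninfused Gcg-/- livers were 105 ± 5.27 RPKM for Igf1, 528 ± 20.4 RPKM for Igfbp4, 96.6 ± 89.9 RPKM for Igfbp1 and 231 ± 45.6 RPKM for Ghr (n = 2). Mean Igfbp2 in Gcg-/- livers at 30 µg/d was then 201 ± 42.2 RPKM (n = 3). None of the 6 genes was called at 150 µg/d in Gcg-/- without library 4, or without libraries 4 and 13. Calls fell among all genes too, to 93 of 11590 without libraries 4 and 13, against 315 with them. The part of the sex-biased profile of library 4 in these values was not tested.

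Some markers of other liver cells moved with the same comparison. At 150 µg/d in Gcg-/- livers, 3 of 15 endothelial markers were lower (Cdh5, Pecam1 and Tek, by limma) and 5 of 15 were higher in uninfused Gcg-/- than in uninfused WT livers (the same 3, Lyve1 and Stab2). Without libraries 4 and 13 these counts were 1 (Tek) and 0, where 93 and 22 of all genes tested were called, against 315 and 179 with them. The median log2 changes of the 15 markers were −0.26 and 0.33 in these 2 comparisons, and −0.23 and 0.37 without libraries 4 and 13. With all libraries, 8 and 9 of the 15 markers had an unadjusted limma p under 0.05 (18.4% and 17.5% of all genes). Their summed level was 126 to 142 RPKM in Gcg-/- at 150 µg/d, 160.4 to 173 RPKM in uninfused Gcg-/- and 121 to 130 RPKM in uninfused WT livers, and none of the 15 was at 0 in all libraries. Of 12 Kupffer cell markers none was called in these comparisons, and their summed level was 205 to 353 RPKM, 326 to 339 RPKM and 210 to 285 RPKM in the same 3 groups, with none at 0 in all libraries. The uninfused genotypes did not overlap in this sum. Between them 9 of the 12 had an unadjusted limma p under 0.05 (17.5% of all genes), and 1 at 150 µg/d in Gcg-/- (18.4%). Of 15 stellate cell and fibroblast markers none was called, with sums of 205 to 227 RPKM, 206 to 224 RPKM and 162 to 175 RPKM in those groups, so uninfused Gcg-/- livers lay above uninfused WT livers. Of 6 cholangiocyte markers 3 were tested and none was called, with sums of 23.0 to 98.8 RPKM, 60.3 to 177 RPKM and 16.4 to 32.8 RPKM, again without overlap between the uninfused genotypes. The median log2 difference of those 3 between the uninfused genotypes was only 0.12, and 1 had an unadjusted limma p under 0.05. Their sum thus does not stand for every marker of the list. Hepatocyte markers, 8 genes, averaged between 10.2 and 10.6 on the log2(RPKM + 1) scale in all libraries. Their summed level was 30093 to 45174 RPKM, 45479 to 72196 RPKM and 40011 to 44761 RPKM in the same 3 groups. Uninfused Gcg-/- livers thus lay above both other groups in this sum, which was highest in library 4. Of these 8, 5 had an unadjusted p under 0.05 at 150 µg/d in Gcg-/- livers and 1 was called by limma, Tat, a tyrosine-degrading enzyme, which was higher. None of the 8 was called without libraries 4 and 13. The part of cell composition in the changes of Igfbp2 and Igfbp4 was not tested.

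The mean shares of the binding proteins differed more between the doses in Gcg-/- than in WT livers. Among WT libraries, the ranges of all doses overlapped in the shares of both Igfbp4 and Igfbp2. Summed over Igfbp1 to Igfbp7, transcripts came to 1147 ± 383 RPKM in Gcg-/- livers without infusion, 1016 ± 66.7 RPKM at 30 µg/d and 876 ± 25.9 RPKM at 150 µg/d. The uninfused Gcg-/- sums were 1581, 1006 and 855 RPKM, so the high mean came from library 4, without which it was 930.3 ± 107 RPKM (n = 2). WT sums were 847 ± 68.1 RPKM without infusion, 987 ± 96.1 RPKM at 30 µg/d and 893 ± 87.5 RPKM at 150 µg/d. Igfbp4 made up 47.9%, 64.0% and 73.99% of the sum in Gcg-/- livers at 0, 30 and 150 µg/d, and 69.8%, 66.2% and 72.0% in WT livers. Igfbp2 made up 34.1%, 22.9% and 13.3% in Gcg-/- livers and 20.2%, 22.04% and 13.9% in WT livers. In library 4 Igfbp2 took 48.8% and Igfbp4 29.2%, the one library in which Igfbp2 exceeded Igfbp4. Without it, Igfbp4 made up 57.3 ± 8.79% and Igfbp2 26.7 ± 1.76% in uninfused Gcg-/- livers (SD, n = 2). For each RPKM of Igf1, the binding proteins together had 11.4, 8.60 and 6.62 RPKM in Gcg-/- livers at 0, 30 and 150 µg/d and 7.33, 7.85 and 6.23 RPKM in WT livers. The uninfused Gcg-/- value was 8.83 RPKM without library 4. Igf1 over Igfals was 2.43, 2.55 and 3.40 in Gcg-/- livers and 2.51, 2.79 and 3.27 in WT livers. These shares and ratios are group means of library values, described without a test.

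Among the other binding proteins, Igfbp5, which like Igfbp3 can join the complex with the acid-labile subunit, was the only one called. It had 5.11 ± 1.37 RPKM (n = 4) in Gcg-/- livers at 150 µg/d, against 1.61 ± 0.59 RPKM (n = 3) without infusion, a log2 change of 1.22 ± 0.26 (limma adjusted p = 0.0173). The 4 libraries at 150 µg/d lay between 3.59 and 6.34 RPKM and the uninfused ones between 0.961 and 2.12 RPKM. Without library 4 the change was 1.03 (adjusted p = 0.103), and with the compared groups fitted alone the adjusted p was 0.125. Igfbp3, the main carrier in serum, was low and not called, at 5.01 ± 1.57 RPKM in Gcg-/- livers at 150 µg/d and 6.98 ± 3.69 RPKM without infusion. Igfbp7 averaged 42.2 ± 3.30 and 49.5 ± 4.39 RPKM in the same 2 groups and was not called. Igfbp6 lay between 0 and 1.02 RPKM and had too low a mean to be tested. So did Igf2, a fetal growth factor, at 0.0665 to 0.231 RPKM, and Igf1r, the IGF1 receptor, at 0.305 to 0.733 RPKM.

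Upstream of Igf1, 11 of 12 listed genes of growth hormone receptor signalling were tested and none was called in any of the 11 contrasts. Stat5b, the transcription factor that links the receptor to Igf1, averaged 10.1 ± 2.08 RPKM in Gcg-/- livers at 150 µg/d and 12.6 ± 1.04 RPKM without infusion, a log2 change of −0.31 (limma adjusted p = 0.156). In WT livers it averaged 10.5 ± 0.59 RPKM at 150 µg/d and 13.2 ± 0.915 RPKM without infusion, a change of −0.30 (limma adjusted p = 0.298). Socs2 and Cish, feedback inhibitors induced by STAT5, were not called. Socs2 averaged 7.45 ± 4.82 RPKM in Gcg-/- livers at 150 µg/d and 17.4 ± 4.37 RPKM without infusion, and Cish 8.93 ± 8.12 and 11.6 ± 5.82 RPKM. None of 12 growth hormone-responsive liver genes was called in any contrast, with a median log2 change of 0.39 at 150 µg/d in Gcg-/-, against −0.04 over all genes tested. Their mean log2(RPKM + 1) was 4.53 in library 4 and 5.88 and 6.01 in the other uninfused Gcg-/- libraries, and without libraries 4 and 13 the median change was −0.09, against −0.03 over all genes tested. Without those libraries 1 of the 12 was called by limma, Slco1a1, a bile salt and steroid transporter, which was higher in uninfused Gcg-/- than in uninfused WT livers and lower at 150 than at 30 µg/d in Gcg-/-. Of 8 proteases of binding proteins and their inhibitors 2 were tested, and none was called.

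Of 13 genes known to respond to insulin, FOXO1 or cAMP, 1 was called at 150 µg/d in Gcg-/- and none in the other main comparisons, with a median log2 change of 0.12. It was Pck1, a gluconeogenic enzyme that glucagon induces, at 1587 ± 385 RPKM at 150 µg/d and 520 ± 158 RPKM without infusion, a log2 change of 1.62 (limma adjusted p = 0.0161). That call ended without library 5 or 21 (0.0658 and 0.0516) and with the compared groups fitted alone (0.0999). Of 6 nutritional endocrine genes, Txnip, which is induced by glucose, was 141 ± 40.8 RPKM in uninfused Gcg-/- and 28.9 ± 10.97 RPKM in uninfused WT livers, a log2 difference of 2.27 (limma adjusted p = 0.0182). At 30 and 150 µg/d it fell in Gcg-/- livers to 28.9 ± 17.98 and 20.1 ± 7.37 RPKM, changes of −2.36 and −2.77 (limma adjusted p = 0.0199 and 0.00204). The genotype call ended without library 1, 3 or 4 (0.0574, 0.111 and 0.0978) and without libraries 4 and 13 (0.0805), and the call at 30 µg/d without any 1 of libraries 4, 5, 12, 13 and 14 (0.0528 to 0.150), without libraries 4 and 13 (0.210) and with the compared groups fitted alone (0.273). The call at 150 µg/d ended only with the compared groups fitted alone (0.0890), among the alternatives tried.

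Across the 22 libraries, Igf1 and Igfbp2 ran in opposite directions (Pearson's r = −0.63, adjusted permutation p = 0.0330 over 15 pairs of the 6 genes; Spearman's rho = −0.51, adjusted permutation p = 0.131). Without libraries 15 and 18, the 2 farthest from the median of Igf1, r was −0.57, and without libraries 4 and 13 it was −0.53. Igf1 and Igfbp4 ran together (r = 0.59, adjusted permutation p = 0.0331; rho = 0.56, adjusted permutation p = 0.112; r = 0.77 without libraries 15 and 18, and 0.45 without 4 and 13). With group means removed, r was −0.19 and 0.18 (adjusted permutation p = 0.800 for both), so neither relation was resolved within groups. No pair passed with group means removed. The closest was Igfals with Igfbp2 (r = −0.68, permutation p = 0.00633, adjusted p = 0.0949; −0.59 without libraries 4 and 13).

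The genes most like each of the 6 were taken as those with the highest Pearson correlation of log2(RPKM + 1) over the 22 libraries among the 11590 tested. Being the extremes of so many, they are described without a test. Igfbp1 was most like Jun, an immediate early transcription factor (r = 0.85), Irf2bp2, a transcriptional corepressor (0.83), and Gdf15, a stress-induced hormone (0.79). With group means removed these were 0.94, 0.88 and 0.92, higher than over all libraries, and without libraries 4 and 13 they were 0.85, 0.88 and 0.80. Where Igfbp1 was at 4.11 RPKM, Jun was at 3.11 and Gdf15 at 1.27 RPKM (library 14), and where it was at 286 RPKM, Jun was at 90.6 and Gdf15 at 55.1 RPKM (library 4). The gene least like it was Dancr, a long noncoding RNA (−0.86). The labels give no collection time or feeding state.

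Igf1 was most like Hip1r, a clathrin adaptor (r = 0.90 over all libraries, 0.80 with group means removed, 0.88 without libraries 4 and 13), Spin1 (0.89) and Dpy19l1 (0.86), and least like Dapk2 (−0.84). Hip1r was at 7.32, 16.05, 17.2 and 19.3 RPKM in Gcg-/- libraries at 150 µg/d and at 20.7, 14.4, 9.43 and 20.9 RPKM in WT ones. In uninfused libraries it was at 3.59, 4.78 and 5.49 RPKM in Gcg-/- and 6.95, 7.06 and 6.91 RPKM in WT. The WT libraries at 150 µg/d with the highest Igf1, at 162 and 167 RPKM, were also the ones with the highest Hip1r. Igfbp2 was most like Hsd17b11 (0.88), Ugt1a1, which conjugates bilirubin (0.86), and Hsd17b6 (0.86), and least like Apon (−0.90). Without libraries 4 and 13 these were 0.81, 0.82, 0.73 and −0.80. Igfbp4 was most like Ankrd33b (0.82, and 0.68 without libraries 4 and 13), Igfals most like Serpina4-ps1 (0.79, and 0.75) and Ghr most like Slc22a28 (0.83, and 0.65).

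**Figure D4:**
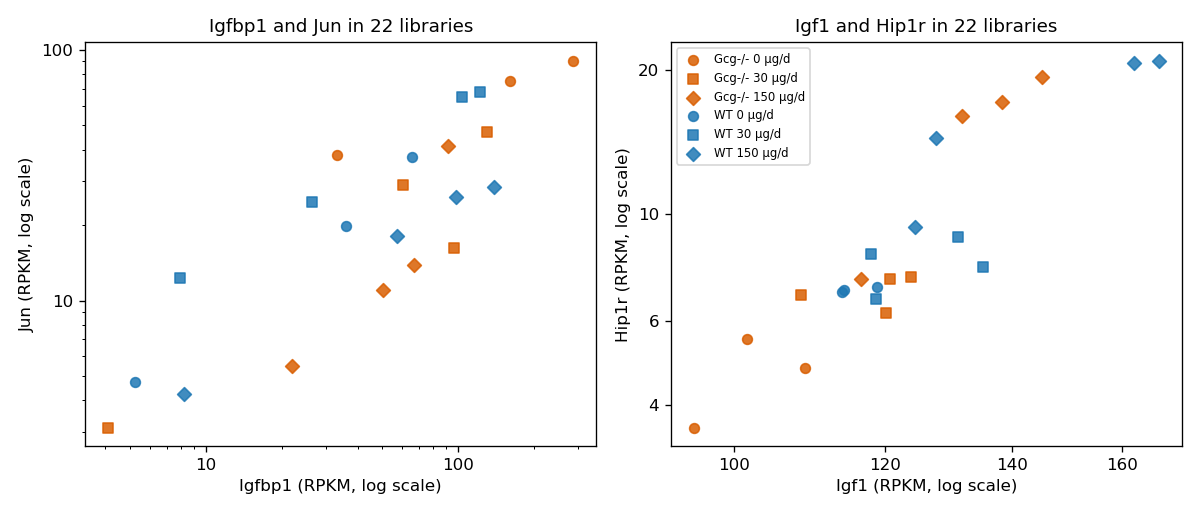
Igfbp1 against Jun (left) and Igf1 against Hip1r (right) in RPKM on log axes, a point for each of 22 libraries (orange Gcg-/-, blue WT; circles 0, squares 30 and diamonds 150 µg/d). Igfbp1 and Jun vary together within each group, while Hip1r at 14.4 RPKM or more is found only in 6 of the 8 libraries at 150 µg/d.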

How the data were processed

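Per the labels, polyA RNA from flash-frozen mouse liver was extracted with Trizol, treated with DNase and made into strand-specific libraries. The authors deposited RPKM per gene for 22 libraries. CASAVA 1.8.2, FastQC and GRCm38 are named in the submitters' processing notes, while for the aligner, counter and annotation nothing is named (not given in the sources used here). Library numbers are the submitters' own, and all columns matched a label.

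RPKM is not a count, so limma 3.58.1 (R 4.3.3) with a mean-variance trend was fitted to log2(RPKM + 1) for 11590 genes with a mean of at least 0.5 RPKM over the 22 libraries, all 6 groups together and without covariates. There were 11 contrasts, each with Benjamini-Hochberg adjustment over those genes, called under 0.05 (16 residual and 3.18 prior degrees of freedom). The pseudocount of 1 understates the changes of low genes. Correlations used log2(RPKM + 1) with 100000 permutations. The procedure was tested on simulated data.

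Depth was estimated from the steps between low values of 3974 genes with one transcript. Only 63.6% to 68.4% of those values came out whole within 0.1 read (20% by chance), too few for a count test. RPKM sums were 558222 to 596386 per library, and 5599 genes were 0 in every library. Spearman's rho between libraries of a group was 0.949 to 0.989, and no 2 columns were identical.

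The 6 genes and the gene lists were chosen with earlier results of these data known. Of the other genes listed for the growth hormone and IGF axis, insulin, cAMP and nutrition, the text names those called in any contrast, plus Igfbp3, Igf2, Igf1r, Stat5b, Cish and Socs2, and the 3 genes most and least like each of the 6 were computed. The rule does not cover marker lists: Pecam1, Cdh5, Tek, Lyve1, Stab2, Tat and the sex-biased and sex-linked genes named, like Igfbp6, Igfbp7 and Slco1a1, lie outside it and were chosen after their values were seen. Promoters are RefSeq's, on GRCm38.p6, from 250 bases upstream. Alternatives covered the pseudocount, the filter, scaling, the samples fitted and their weights, and leaving out libraries.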

Additional observations from a re-analysis of the deposited data

Results flagged for a closer look

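Ghr in library 17, a WT liver at 150 µg/d, was at 189.7 RPKM, apart from the other 3 libraries of its group, which lay between 241 and 245 RPKM. Its gap to them was larger than Dixon's 95% limit for a group of 4, a limit that chance passes in about 1 in 20 groups.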

How the results depend on the processing

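Over 10 other settings (pseudocount, filter, scaling, groups fitted alone, array weights, and without libraries 4 and 13), the number of the 6 genes called kept its value or stayed within 1.5 times of it in 107 of 110 cases. The main count was 0 in every contrast but 150 µg/d in Gcg-/-, so most of these cases were a 0 that stayed 0. In that contrast a rise from 2 to 3 lay within the 1.5 times. At 150 µg/d in WT the count was 1 with array weights (Igf1), a setting that called 438 of all 11590 genes there, against 34 in the main fit. At 150 µg/d in Gcg-/- it was 0 with the compared groups fitted alone and 0 without libraries 4 and 13, against 2. Those 2 settings called 1 and 93 of all genes there, against 315 in the main fit. Leaving out 1 library at a time gave 0 to 3 there, and 0 without library 4, 21 or 22. In the other 10 contrasts the count was 0 each time. Fitting the groups alone leaves fewer libraries to estimate the spread, and so does leaving out a library; beyond that the cause was not tested. Each group kept at least 2 libraries in every such fit.

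Changes of sign occurred in genes that were not called. Igfals, Gcg-/- minus WT without infusion, was 0.027 without libraries 4 and 13 (−0.23 to 0.027 over single libraries left out). At 30 µg/d in Gcg-/- it was −0.0040 without libraries 4 and 13 (−0.021 to 0.23), at 150 µg/d in Gcg-/- −0.26 to 0.00036, at 30 µg/d in WT −0.090 to 0.046, at 150 µg/d in WT −0.12 to 0.024, and −0.20 to 0.058 in the difference of responses to 150 µg/d. Ghr at 150 µg/d in Gcg-/- was −0.014 with array weights and −0.10 without libraries 4 and 13 (−0.10 to 0.38). Igfbp1 at 30 µg/d in WT ran between −0.24 and 1.51, and Igf1 in the difference of responses to 150 µg/d between −0.0073 and 0.13.

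No paired analysis was possible because each library number occurs once, so no number is shared between groups. With 3 or 4 libraries a group, the spread of Igfbp1 leaves changes of several fold undetectable.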
